A study of Mus musculus with 8 samples.

Results

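The 7 genes described here encode steps of the cascade that runs from Ras to the kinase ERK. They were taken by name from a table of 15519 genes, and all 7 were in it: Rasgrf1, Rasgrf2, Rasgrp1, Braf, Map2k1, Map2k2 and Mapk3. The table holds nuclear RNA of pyramidal cells from the hippocampus of WT mice. Their nuclei were collected after cells had been imaged in the living animal during navigation and tagged with light according to what they did. Place cells are neurons that fire when the animal is at a particular spot. Of the 8 libraries, 4 came from cells labelled Day 0 and 4 from cells labelled Recurring. The labels do not define the 2 classes further, and they give no age, sex, batch or number of nuclei per library. Each library carries its own mouse number. Nothing else states that the animals were separate, so p-values speak only to variation among these 8 libraries, which may be technical.

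Ras proteins are membrane switches that are active when bound to GTP. Exchange factors load them with GTP, and in hippocampal neurons the RasGRF proteins do so in response to calcium bound to calmodulin, while the RasGRP proteins respond to diacylglycerol and calcium. Active Ras recruits kinases of the RAF family, which phosphorylate MEK1 and MEK2. These phosphorylate the ERK kinases, which act on transcription factors, on translation and on the excitability of dendrites, and ERK signalling is known for its part in synaptic plasticity and memory. The cascade works through phosphorylation, which RNA levels do not measure.

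Levels are given below as normalized counts, which are reads divided by a factor for the depth of each library, and the tests used log2 of the normalized count plus 1. Libraries held 8374986 to 14887866 reads in genes, and 10718 to 13807 genes were detected in each. Markers of CA1 pyramidal neurons were abundant in every library, with a mean log2 level of 9.47 to 10.63 over 12 markers, 6 of them higher and 6 lower in Recurring cells. Slc17a7, a transporter that loads glutamate into vesicles, and Camk2a, a kinase subunit of excitatory neurons, had reads in all 8 libraries.

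RNA of other cell types was present and was uneven. The mean log2 level of the 7 astrocyte markers in the table was 2.93 to 6.37 in Day 0 and 6.55 to 9.50 in Recurring libraries, so the groups did not overlap. Summed, these markers came to 1696 to 3906 normalized counts in Day 0 and 1804 to 13340 in Recurring libraries, with 5 of 7 higher and 2 lower. Among the microglia markers, 5 of 8 were in the table, and their mean log2 level was 1.55 to 4.64 in Day 0 and 3.45 to 9.93 in Recurring libraries. The highest value was in Recurring replicate 4. The 8 interneuron markers in the table had mean log2 levels of 2.31 to 6.16 in Day 0 and 2.63 to 8.26 in Recurring libraries, highest in Recurring replicate 2. No tested marker of any list passed the test, but some were not tested: of the 8 interneuron markers in the table, 5 were. The part of these cells in the members' values was not tested.

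The promoters of Map2k1 and Map2k2 are shown because the 2 MEK genes had unlike levels in several libraries, and that of Braf because it alone among the 6 members searched holds a complete cAMP response element, the motif bound by CREB. They come from RefSeq on GRCm38.p6, an earlier build than the one the reads were aligned to, and cover 250 bases before and 50 after the annotated start of the gene. Of the 7 members, 6 were in the RefSeq table, and Mapk3 was the one without an entry. Each is printed 5′ to 3′ on the strand of the gene. Capitals in Map2k1 and Map2k2 mark GC boxes, the site GGGCGG of Sp1 on either strand, and capitals in Braf mark TGACGTCA, the cAMP response element. The Map2k1 promoter is at chr9:64253556-64253855 on the minus strand, that of Map2k2 at chr10:81105665-81105964 on the plus strand and that of Braf at chr6:39725414-39725713 on the minus strand.
Map2k1: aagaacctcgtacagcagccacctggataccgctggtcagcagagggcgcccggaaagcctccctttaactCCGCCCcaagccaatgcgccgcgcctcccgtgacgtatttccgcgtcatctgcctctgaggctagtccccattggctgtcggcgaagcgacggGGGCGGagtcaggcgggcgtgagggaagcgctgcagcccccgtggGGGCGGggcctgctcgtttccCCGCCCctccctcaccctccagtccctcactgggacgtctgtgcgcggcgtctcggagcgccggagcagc
Map2k2: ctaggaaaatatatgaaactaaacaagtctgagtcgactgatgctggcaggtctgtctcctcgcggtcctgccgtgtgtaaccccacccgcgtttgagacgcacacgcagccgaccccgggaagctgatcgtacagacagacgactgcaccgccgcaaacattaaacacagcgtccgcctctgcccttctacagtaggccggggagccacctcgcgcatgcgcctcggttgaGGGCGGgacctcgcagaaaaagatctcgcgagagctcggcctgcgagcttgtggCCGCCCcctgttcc
Braf: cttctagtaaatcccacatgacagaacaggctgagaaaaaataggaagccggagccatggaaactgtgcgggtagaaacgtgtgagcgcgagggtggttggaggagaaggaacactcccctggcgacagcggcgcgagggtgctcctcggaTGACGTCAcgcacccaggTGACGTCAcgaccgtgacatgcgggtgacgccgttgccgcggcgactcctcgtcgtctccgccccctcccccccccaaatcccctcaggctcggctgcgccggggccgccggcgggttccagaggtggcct

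All 6 promoters were rich in G and C, with 60.7% to 69.0% of bases against a median of 52.7% over 32851 mouse promoters. They held 26 to 31 CpG pairs, against a median of 7. GC boxes were found in 5 of 6, with 4 in Map2k1, 2 in Map2k2, 2 in Rasgrf1, 1 in Rasgrp1 and 1 in Braf, and 35.7% of all promoters held at least 1. Braf had 2 copies of TGACGTCA, which 1.79% of all promoters contained. The shorter TGACG, part of that element, matched 5 times in Braf on both strands together. The full element reads the same on both strands, so each of its 2 copies counts once per strand among those 5. TGACG matched 2 times in Map2k1 and 1 time each in Rasgrf1 and Rasgrf2, against 20.8% of all promoters with a match. None of the 6 windows held GCGGGGGCG (Egr1, in 2.91% of all promoters), TATAAA (the TATA box, 13.6%) or CCGGAAGT (a site of ETS factors, 3.89%). Every motif was searched on both strands, and a match is a string of letters, not a measured binding site.

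Per length, the members differed widely in level. Divided by the length of their exons in kilobases (GENCODE vM21), mean normalized counts over the 8 libraries were 1660 per kb for Rasgrp1, 881 for Rasgrf1, 488 for Braf, 223 for Map2k1, 104 for Map2k2, 83.0 for Mapk3 and 20.4 for Rasgrf2. Rasgrp1, Rasgrf1 and Braf took the top 3 ranks among the 81 genes of the pathway in the table. Map2k1 was at rank 9, Map2k2 at rank 26, Mapk3 at rank 34 and Rasgrf2 at rank 67. Every pair of neighbours in this order had overlapping ranges over the libraries. Within single libraries, Rasgrp1 was above Rasgrf1 and Braf above Map2k1 in 8 of 8, and Rasgrf1 was above Braf in 7 of 8. Map2k1 was above Map2k2, Map2k2 above Mapk3 and Mapk3 above Rasgrf2 in 6 of 8 each. These lengths count every annotated exon, and part of the Braf exons, 146 of 13862 bases, lies on the opposite strand of Ndufb2. Whether counting used strand is not given in the sources used here, so reads in that stretch could belong to either gene.

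**Figure D1:**
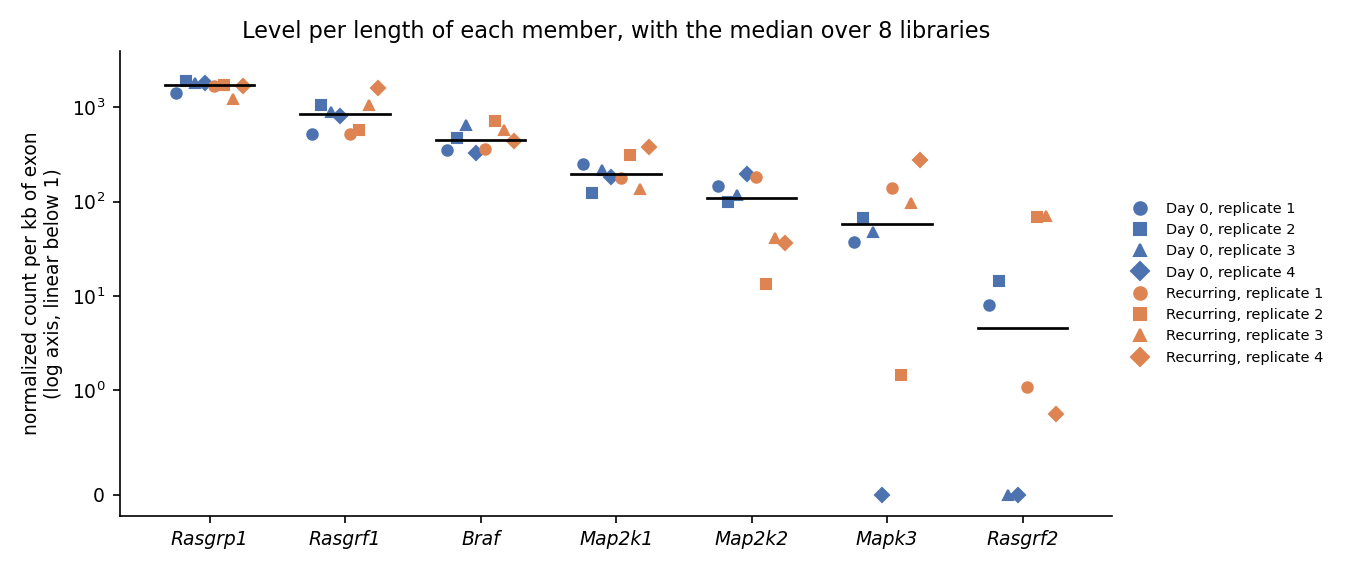
Normalized count per kilobase of exon for each member (vertical axis, logarithmic above 1), with 1 point per library, blue for Day 0 and orange for Recurring, and a bar at the median over 8 libraries. Rasgrp1 lies highest and keeps a narrow spread, while Mapk3 and Rasgrf2 reach 0 in Day 0 libraries.

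Between Recurring and Day 0 cells no member passed the test. All 7 were tested, which needed a normalized count of at least 10 in at least 4 libraries. Of these, 5 had a higher and 2 a lower mean in Recurring cells (Rasgrp1 and Map2k2), with a median log2 difference of 0.23. Over all 11078 genes tested, 50.13% had a higher mean in Recurring cells and the median log2 difference was 0.005. limma with Benjamini-Hochberg adjustment over all tested genes called 0 of the 7 members and 0% of all tested genes (lowest adjusted p 0.981). Taken without adjustment, 0 of 7 members had a p under 0.05, against 401 genes or 3.62% of all tested. The groups overlapped for every member. Among all tested genes, 1.24% had all Recurring above all Day 0 libraries and 1.17% had them all below. In bulk libraries such as these, fewer cells of a type and less RNA per cell cannot be told apart.

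**Figure D2:**
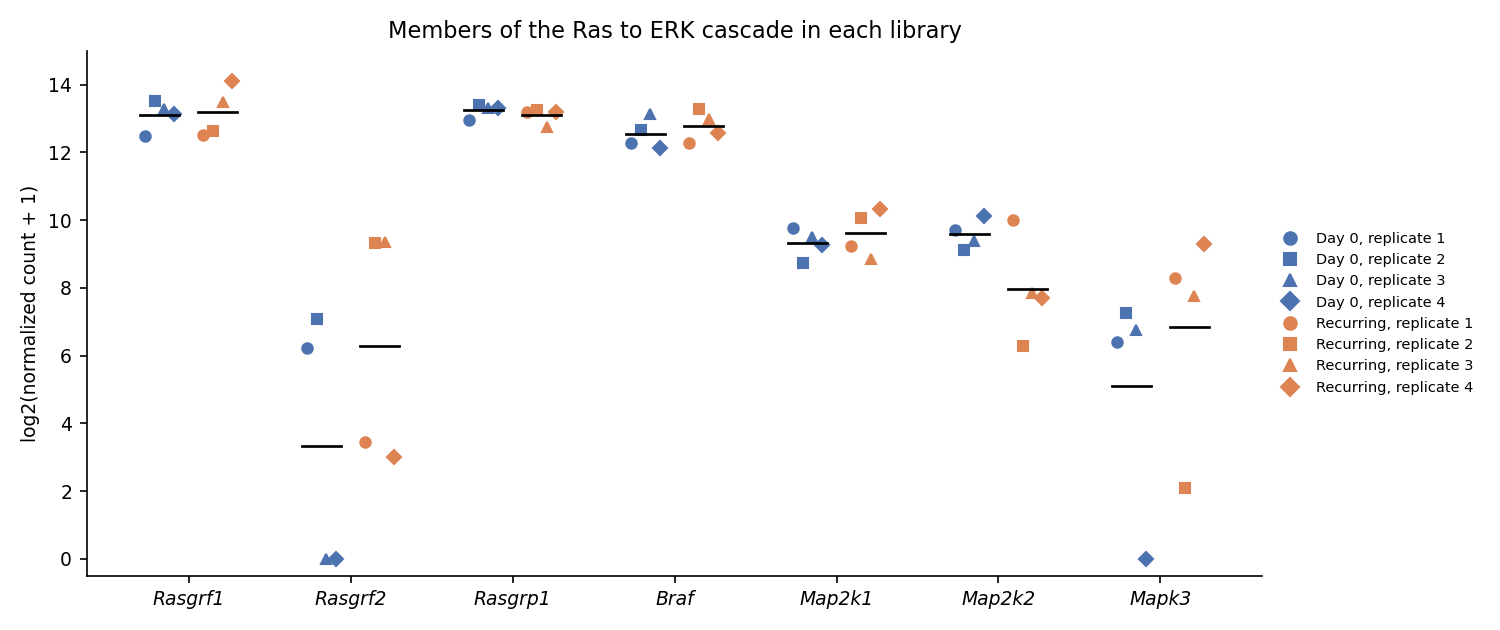
The log2 of the normalized count plus 1 for each member (vertical axis) in each of the 8 libraries, blue for Day 0 and orange for Recurring, with a symbol for each replicate number and a black bar at each group's mean. Replicate numbers are names and pair no libraries. Rasgrf1, Rasgrp1 and Braf lie between 12.1 and 14.1 in every library, whereas Rasgrf2 and Mapk3 range from 0 to above 9.

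Rasgrp1 had the steadiest values of the 7. Its normalized counts were 7899, 10740, 10160 and 10250 in Day 0 replicates 1 to 4 and 9386, 9798, 6821 and 9343 in Recurring replicates 1 to 4. Apart from Recurring replicate 3, which was the lowest, and Day 0 replicate 1, the libraries lay close together, and over all 8 the coefficient of variation was 14.1%. The log2 means were 13.24 ± 0.20 and 13.10 ± 0.24 (SD, n = 4), which differed by -0.15 (SE 0.26, 95% interval -0.69 to 0.39, limma adjusted p = 0.998). Only 0.18% of tested genes had a smaller standard error than Rasgrp1. The interval does not reach 1 on the log2 scale on either side. Within this fit, that excludes a 2-fold difference in mean log2 level. The fit draws each gene's variance toward a trend with mean level. Without that trend the same Rasgrp1 difference had an unadjusted limma p of 0.801, against 0.572 with it. The exclusion therefore depends on the variance model. Leaving out Day 0 replicate 1, every Recurring library lay below every remaining Day 0 library, with a log2 difference of -0.26 and an unadjusted limma p of 0.378. With that library left out, 2.35% of all tested genes had Recurring wholly below Day 0, and 5.09% had groups apart in either direction. Without Recurring replicate 3, the lowest library, the Rasgrp1 difference was -0.030.

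Rasgrf1, the calcium- and calmodulin-dependent exchange factor, varied more. The Day 0 libraries had 5737, 11850, 9990 and 8891 normalized counts and the Recurring libraries 5803, 6301, 11580 and 17800. The highest library was Recurring replicate 4, and the lowest values, 5737 and 5803, were 1 in each group. The log2 means were 13.11 ± 0.45 and 13.19 ± 0.77 (SD, n = 4), and the difference was 0.08 (SE 0.36, 95% interval -0.67 to 0.83, limma adjusted p = 0.998). This interval also stays within 1 log2 unit of 0. The sign was not stable: without Recurring replicate 4 the difference was -0.23, without Day 0 replicate 1 -0.14 and without Recurring replicate 3 -0.026.

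Rasgrf2, the paralog of Rasgrf1 that is regulated in the same way, was scarce and patchy. Its normalized counts were 73.6, 133, 0 and 0 in Day 0 and 9.91, 638, 648 and 7.10 in Recurring libraries. The reads behind them were 99, 167, 0 and 0, and 16, 790, 612 and 7. Recurring replicates 2 and 3 were high and Recurring replicates 1 and 4 lay below Day 0 replicates 1 and 2, so the groups overlapped. A count of 0 allows up to 3 reads, which is 3.59 normalized counts in Day 0 replicate 3 and 3.01 in Day 0 replicate 4, for counting error alone. The log2 difference was 2.96 (SE 2.58, 95% interval -2.48 to 8.39, limma adjusted p = 0.981). An interval this wide holds both large gains and large losses, and 91.6% of tested genes had a smaller standard error. Rasgrf2 was kept by just 4 libraries at or above 10, with Recurring replicate 1 slightly under it. Recurring replicate 2, among its highest libraries, also had the highest interneuron markers, including 4634 normalized counts of Gad1, the enzyme that makes GABA. Recurring replicate 3, as high for Rasgrf2, had 814 of Gad1. It also had 2447 of Vip, another interneuron marker, which was at 0 in Recurring replicate 2. The mean log2 level of the interneuron markers was 8.26 in Recurring replicate 2 and 5.97 in Recurring replicate 3. Day 0 replicate 1, with 73.6 of Rasgrf2, was above Recurring replicate 3 in these markers, at 6.16, and in Gad1, at 969.5. Day 0 replicate 3 had 598.7 of Gad1 and no reads of Rasgrf2. The part of interneurons in the Rasgrf2 values was not tested.

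Braf, the RAF kinase that passes the signal from Ras to MEK, was abundant in all libraries. Its normalized counts were 4924, 6515, 9013 and 4512 in Day 0 and 5021, 9963, 8028 and 6120 in Recurring libraries. Each group held high and low libraries, with Day 0 replicate 4 the lowest and Recurring replicate 2 the highest. The log2 means were 12.55 ± 0.45 and 12.78 ± 0.43 (SD, n = 4), and the difference was 0.23 (SE 0.33, 95% interval -0.46 to 0.92, limma adjusted p = 0.998). As for Rasgrf1 and Rasgrp1, this interval lies inside 1 log2 unit on either side. For each of these genes that depends on the variance trend of the fit. Without the trend, the unadjusted limma p was 0.720 for Braf and 0.908 for Rasgrf1, against 0.494 and 0.825 with it. Of all tested genes, 0.858% had a smaller standard error than Braf and 1.52% a smaller one than Rasgrf1.

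Araf, another kinase of the RAF family, was even as well. It had 1968, 2030, 2892 and 2843 normalized counts in Day 0 and 2255, 4506, 3457 and 4313 in Recurring libraries. Only Recurring replicate 1 lay within the Day 0 range, and the log2 difference was 0.55 (SE 0.39, 95% interval -0.27 to 1.38, limma adjusted p = 0.981). Per kilobase, Araf had 464 normalized counts on average, next to Braf with 488.

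The 2 MEK genes differed from each other in their pattern. Map2k1, which encodes MEK1, had 862, 420, 728 and 616 normalized counts in Day 0 and 605, 1071, 462 and 1299 in Recurring libraries. Recurring replicates 2 and 4 were the highest, and Day 0 replicate 2 was the lowest with Recurring replicate 3 just above it. Its log2 means were 9.31 ± 0.44 and 9.63 ± 0.70 (SD, n = 4), with a difference of 0.31 (SE 0.68, 95% interval -1.12 to 1.75, limma adjusted p = 0.998).

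Map2k2, which encodes MEK2, had the smallest p of the 7 members and did not pass the test. Its normalized counts were 837, 559, 668 and 1121 in Day 0 and 1029, 76.7, 231 and 206 in Recurring libraries. Recurring replicates 2, 3 and 4 lay below every Day 0 library, whereas Recurring replicate 1 was the second highest of all 8. The reads were 1125, 701, 559 and 1118 in Day 0 and 1661, 95, 218 and 203 in Recurring libraries. The log2 means were 9.59 ± 0.43 and 7.96 ± 1.54 (SD, n = 4), a difference of -1.63 (SE 0.93, 95% interval -3.58 to 0.32, unadjusted p = 0.0962, limma adjusted p = 0.981). Of all tested genes, 8.46% had a smaller p.

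Recurring replicate 1 decided whether the Map2k2 groups overlapped. Without it the log2 difference was -2.33 with an unadjusted limma p of 0.0220 and an adjusted p of 0.930, and the groups were apart. With that library left out, 2.72% of all tested genes had Recurring wholly below Day 0, and 5.85% had groups apart in either direction. The median difference of all genes was then 0.13. Without Recurring replicate 2, the lowest library, the Map2k2 difference was -1.07, with an unadjusted limma p of 0.221. Recurring replicate 1 had the highest mean level of CA1 pyramidal markers, 10.63, and of astrocyte markers, 9.50. Recurring replicate 2, the lowest for Map2k2, was close to it in astrocyte markers, at 9.23. Day 0 replicate 2, at 10.46 for CA1 pyramidal markers, had 559 normalized counts of Map2k2. The part of these cell types in the Map2k2 values was not tested.

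Within a library the 2 MEK genes could be set against each other. The log2 level of Map2k1 minus that of Map2k2 was 0.043, -0.41, 0.12 and -0.86 in Day 0 libraries. It was -0.77, 3.79, 0.997 and 2.65 in Recurring libraries. Thus 3 Recurring libraries lay above all Day 0 libraries and Recurring replicate 1 lay among them. This comparison was chosen after the values were seen and was given no test, and the difference of levels is not corrected for the lengths of the 2 genes, which shift every library alike.

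**Figure D3:**
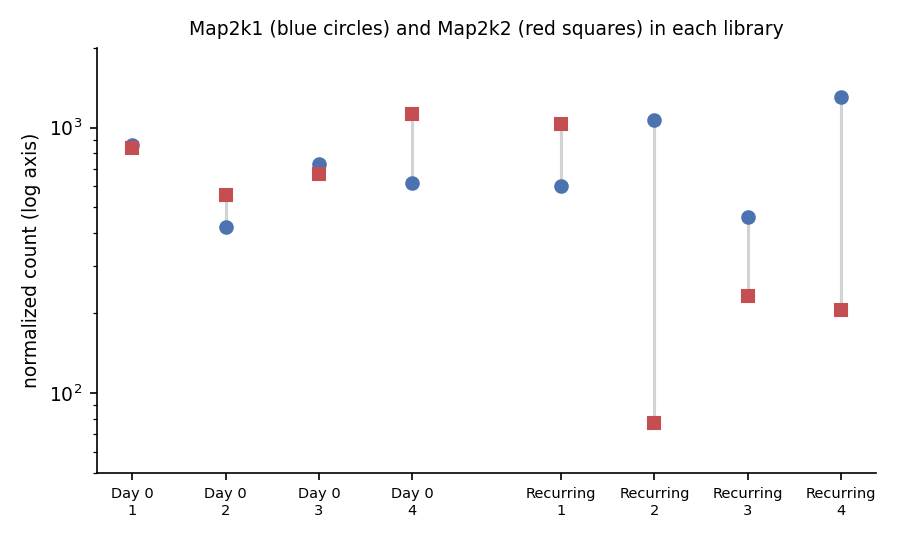
Normalized counts of Map2k1 (blue circles) and Map2k2 (red squares) on a logarithmic axis in each library, with a grey line joining the 2 genes. In Day 0 libraries the 2 genes lie within 0.86 log2 units of each other, and in Recurring replicates 2, 3 and 4 Map2k2 lies between 76.7 and 231 and Map2k1 at 462 or above.

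Mapk3, which encodes ERK1, was low and uneven. Its normalized counts were 84.0, 152, 108 and 0 in Day 0 and 311, 3.23, 216 and 626 in Recurring libraries. Recurring replicates 1, 3 and 4 were above every Day 0 library, and Recurring replicate 2, with 4 reads, was below all Day 0 libraries but replicate 4, which had none. The log2 difference was 1.75 (SE 2.35, 95% interval -3.20 to 6.70, limma adjusted p = 0.998). Single libraries moved it widely, to 0.05 without Day 0 replicate 4 and to 3.34 without Recurring replicate 2. In the latter case the groups did not overlap, at an unadjusted limma p of 0.150. There, 2.55% of all tested genes had Recurring wholly above Day 0, and 4.75% had groups apart in either direction.

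**Figure D4:**
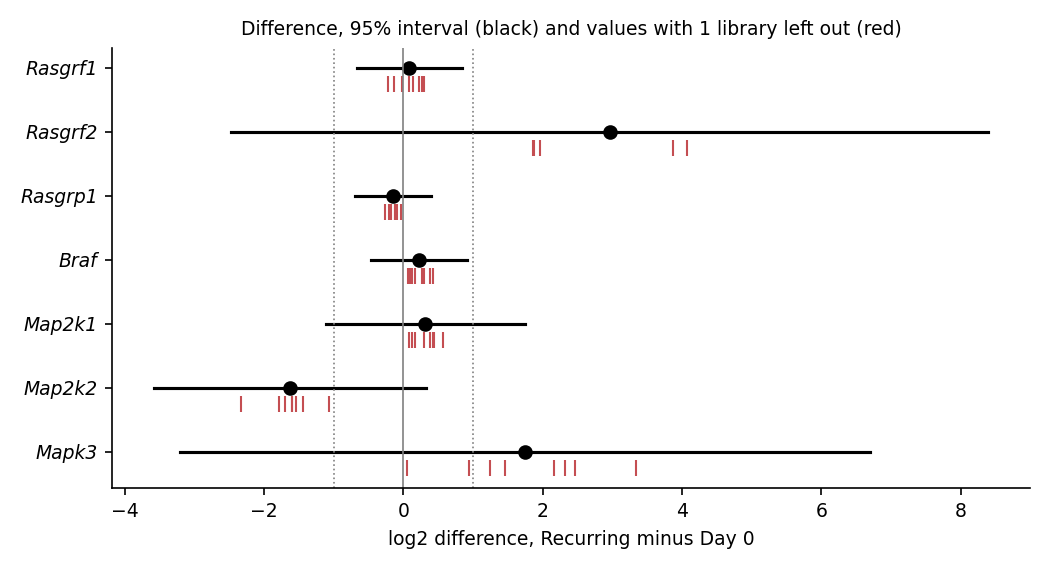
The log2 difference of each member, Recurring minus Day 0 (horizontal axis), with its 95% interval from limma (black) and the difference with each library left out in turn (red ticks), where the gene was still tested. Dotted lines mark a 2-fold difference: the intervals of Rasgrf1, Rasgrp1 and Braf stay inside them, and those of Rasgrf2 and Mapk3 run far outside on both sides.

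The standard errors were smallest for Rasgrp1, Braf and Rasgrf1, which also had the highest mean levels of the members. The fit draws variances toward a trend with mean level, so this order partly restates abundance. Rasgrf1 and Map2k1 had similar SDs, 0.45 and 0.77 against 0.44 and 0.70 in Day 0 and Recurring libraries. Their standard errors were 0.36 and 0.68. Over all tested genes the median standard error was 1.78, and over the 6022 genes with reads in all 8 libraries it was 0.92. Rasgrp1, Braf, Rasgrf1 and Map2k1 were below the second value, Map2k2 was close to it at 0.93, and Mapk3 and Rasgrf2 were above the first. As a description, over the 8 libraries the log2 levels of Braf and Map2k2 had a Pearson r of -0.73 and those of Rasgrf2 and Map2k2 of -0.63, the strongest of 21 pairs. These points share their libraries, and each r rests on 8 values.

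For the 5 members with reads in every library, the genes with the most similar levels were looked up among 5579 genes by Pearson r over the 8 libraries. Rasgrf1 was closest to Ablim3 (r 0.95) and Keap1 (0.93), and Rasgrp1 to Trappc11 (0.95). Braf was closest to Pdpk1 (0.94) and Fibp (0.92). Map2k1 was closest to Celf2 (0.93) and Hspa14 (0.91), and Map2k2 to Dnm2 (0.97) and Taf4 (0.96). These are the highest of 5579 coefficients per member, each over 8 libraries of 2 groups, and are given as a description.

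Beyond the members, 74 further genes of the pathway were in the table and 64 were tested. Of these, 29 had a higher and 35 a lower mean in Recurring cells, limma called 0, and 1 had an unadjusted p under 0.05, with a median log2 difference of -0.13. The groups overlapped for each of the 64. Genes of the lists without a column, among them Rasgrp2 and Gab1, were not analysed here.

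Among the Ras and Rap GTPases, the switches themselves, 3 of 11 tested genes were higher and 8 lower, with a median log2 difference of -0.21. Hras had 691, 22.3, 156 and 62.1 normalized counts in Day 0 and 454, 0, 41.3 and 0 in Recurring libraries, a log2 difference of -3.26 (SE 2.50, limma adjusted p = 0.981). Day 0 replicate 1 and Recurring replicate 1 stood far above the others. Nras, with the highest mean of this list, had 400 to 1153 in Day 0 and 660 to 1833 in Recurring libraries and a log2 difference of 0.72 (SE 0.63). Rras2 had the smallest p of the list, at 0.202, with a log2 difference of -2.82 (SE 2.12) that was -1.30 without Recurring replicate 1.

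Of the other exchange factors and adaptors, 5 of 11 tested genes were higher and 6 lower, with a median log2 difference of -0.01. Shc3, a neuronal adaptor that links receptors to the Ras exchange factors, was the gene with an unadjusted p under 0.05. It had 0, 0, 25.1 and 0 normalized counts in Day 0 and 24.2, 169, 91.1 and 192 in Recurring libraries. Recurring libraries all had reads and 3 of the Day 0 libraries had none, but Day 0 replicate 3 lay just above Recurring replicate 1. The log2 difference was 5.37 (SE 2.08, 95% interval 0.98 to 9.75, unadjusted p = 0.0194, limma adjusted p = 0.981). Sos1, the exchange factor that acts below receptor tyrosine kinases, differed by -0.20 (SE 0.90), and Rapgef2, which acts on Rap, by 0.35 (SE 0.54).

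Of the proteins that inactivate Ras by speeding its GTP hydrolysis, 3 of 8 tested genes were higher and 5 lower, with a median log2 difference of -0.42. Nf1, neurofibromin, differed by 0.68 (SE 0.76). Rasal1 differed by -1.84 (SE 1.15) with the smallest p of the list, 0.127, and by -0.57 without Recurring replicate 2. Rasal2 differed by -0.38 (SE 0.58).

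The remaining kinases and scaffolds had 7 of 15 tested genes higher and 8 lower, with a median log2 difference of -0.09, and Araf had both the smallest p and the highest mean. Of the ERK phosphatases and feedback inhibitors, 5 of 8 were higher and 3 lower, with a median of 0.34. That median turned negative when 1 of 4 libraries was left out: it was -0.81, -0.42 and -0.14 without Recurring replicates 2, 3 and 4 and -0.29 without Day 0 replicate 1. Dusp5, a nuclear phosphatase of ERK, was at 0 in 3 Day 0 libraries and in Recurring replicate 4 and reached 308 in Recurring replicate 2. Its log2 difference was 3.92 (SE 2.04, limma adjusted p = 0.981), and its unadjusted p from the same limma fit was 0.0717. Spred3, an inhibitor of Ras signalling, differed by 0.64 (SE 0.73).

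Of the effector kinases and transcription factors below ERK, 6 of 11 were higher and 5 lower, with a median log2 difference of 0.65. Mknk2, a kinase that phosphorylates a translation initiation factor, had 90.7, 266, 217 and 177 normalized counts in Day 0 and 212, 0, 13.8 and 0 in Recurring libraries. As for Map2k2, Recurring replicate 1 lay within the Day 0 range and the other three Recurring libraries lay below it. The log2 difference was -4.55 (SE 2.33, 95% interval -9.47 to 0.37, limma adjusted p = 0.981). Elk4, a transcription factor that ERK phosphorylates, differed by -0.07 (SE 1.23).

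**Figure D5:**
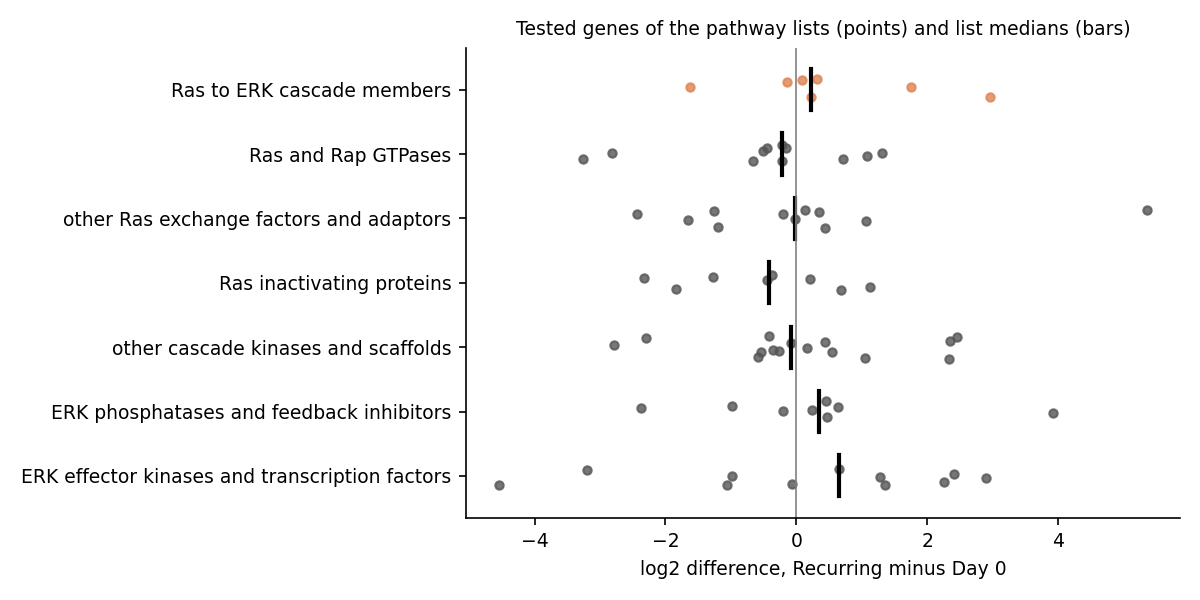
Log2 difference, Recurring minus Day 0, of each tested gene (points) in the members and in 6 lists of other pathway genes, with a black bar at each list's median. Points lie on both sides of 0 in every list, and the medians run from -0.42 to 0.65.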

How the data were processed

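Nuclear RNA was sequenced from SMART-Seq mRNA LP libraries. Reads were mapped to GRCm39 by STAR and assigned to genes by HTSeq, per the submitters' processing notes, which give no versions. What the authors deposited is a signal on a linear scale, 1 value for each gene in each library. Within each gene they were whole reads times a constant of that gene, and dividing by constants computed as trimmed means with genes in the place of libraries gave whole reads for 95910 of 95910 values above 0 (tolerance 0.1 read, largest deviation 0.0492). The step was tested on simulated data. The deposited values thus carried no correction for depth.

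Reads were scaled for depth with size factors from medians of ratios (0.837 to 1.61). limma 3.58.1 with a variance trend (R 4.3.3) was run on log2(normalized count + 1) for the 11078 genes with a normalized count of at least 10 in at least 4 libraries, with Benjamini-Hochberg adjustment over all of them and a threshold of 0.05 (2-sided). On this scale the added 1 shrinks differences among low counts. Counts of 0 in single libraries can instead make a log2 difference larger than the fold of mean counts. For Hras the log2 difference was -3.26, while its mean normalized count was 1.88-fold higher in Day 0. Replicate numbers follow the order of the deposit and pair no libraries. Gene lengths came from GENCODE vM21 and promoters from RefSeq on GRCm38.p6. Intervals are 95% intervals from limma.

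The members, pathway lists, marker lists, tests and alternatives were chosen with earlier results of these data known. Genes were named by rule: the members, direct partners (here Hras, Araf, Nf1 and Sos1), the gene of each list with the smallest p and that with the highest mean, and the 2 nearest patterns of each member with reads in all 8 libraries. Some genes that this rule takes are not reported here. Marker lists covered CA1 pyramidal neurons, dentate granule cells, interneurons, astrocytes, oligodendrocytes and their precursors, microglia and endothelial cells. Mean log2 levels in the lists not described with the results were 2.96 to 7.94 for dentate granule cells, 2.99 to 7.81 for oligodendrocytes, 0 to 7.03 for their precursors and 0.50 to 4.26 for endothelial cells. The alternatives were other pseudocounts, filters, depth corrections and variance models, voom, and leaving out each library.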

Additional observations from a re-analysis of the deposited data

Results flagged for a closer look

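Among 22 groups of 4 libraries checked (11 genes, the members, Hras, Araf, Nf1 and Sos1, on the log2 scale), 3 had 1 library far from the other three. Chance flags about 1 in 20 groups. Rasgrp1 was at 12.74 in Recurring replicate 3, and the nearest Recurring library was at 13.19. Mapk3 was at 0 in Day 0 replicate 4, and the nearest was at 6.41. Sos1 was at 7.01 in Day 0 replicate 3, and the nearest was at 10.08.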

How the results depend on the processing

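Under 17 other settings, 0 of 114 values of the members had an adjusted p under 0.05, and 110 kept their direction. The exceptions were all Rasgrf1: -0.019 with voom, and -0.23 to 0.29 over the fits that left out 1 library. No pathway list had a gene called in any setting, but list medians moved and in 4 of 6 lists changed sign: they ran from -0.81 to 0.57 for the phosphatases and feedback inhibitors (-0.10 with voom), -0.26 to 0.12 for the kinases and scaffolds, -0.64 to 0.41 for the exchange factors and adaptors and -0.56 to 0.052 for the GTPases. Those of the inactivating proteins (-0.64 to -0.023) and the effectors (0.12 to 1.59) kept their sign. Over all genes, limma without a variance trend called 2 genes (lowest adjusted p 0.0300) and every other setting 0, with 344 to 650 genes at an unadjusted p under 0.05; voom gave 518 and a lowest adjusted p of 0.605. The number of members whose groups did not overlap was 0 to 1 with a library left out. Of 14 other named genes, 3 changed sign when a library was left out: Sos1 (-0.99 to 0.18), Rapgef2 (-0.16 to 0.62) and Elk4 (-1.25 to 0.75). Elk4 was at 0.030 on the deposited values as they stand. Rasgrf2 and Mapk3 were not tested where a normalized count of at least 10 was needed in all 8 libraries, and Rasgrf2 dropped out in 3 of the fits without a library.

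Fits with edgeR and DESeq2 were not run, and voom was the one other test on the recovered reads. With 1 library left out, Braf ran from 0.061 to 0.42, Map2k1 from 0.078 to 0.57 and Rasgrf2 from 1.87 to 4.07. No paired analysis was possible because the replicate numbers follow the order of the deposit. Rasgrf2 and Mapk3 rested on 0 to 790 reads a library.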
